A study of Mus musculus with 2 samples.

Results

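The genes of MHC class I and class II antigen presentation were described in single-cell RNA-seq of mouse parathyroid glands grown from embryonic stem cells. Members were every symbol of the deposited gene list that starts with H2-, together with B2m, Tap1, Tap2, Tapbp, Psmb8, Psmb9, Psmb10, Nlrc5, Ciita and Cd74. That gave 44 of 32287 entries, among them 34 H2- symbols. They were divided into 25 class I genes (heavy chains and B2m), 11 class II genes (chains, peptide exchange chaperones, the invariant chain Cd74 and the regulator Ciita), 7 genes of class I machinery (Tap1, Tap2, Tapbp, Psmb8, Psmb9, Psmb10 and Nlrc5) and H2-Ke6, a gene of the H2 region named for its position that encodes a dehydrogenase and no MHC molecule. Both libraries belong to 1 group: Gcm2-/- hosts on a BDF1B6 background, which cannot form the gland themselves, complemented with mouse embryonic stem cells that carry Pth-tdTomato, a red reporter of parathyroid hormone. For replicate 1, 3 mice (9 to 12 weeks old, blood chimerism 50 to 70%) were pooled, and for replicate 2, 5 mice (6 to 13 weeks old, 60 to 70%). Each pool held both sexes, glands were digested with papain, collagenase XI and trypsin, and doublets were excluded by flow cytometry before droplet capture. In the annotation 39 members lie on chromosome 17 between 33915899 and 37483552 (GRCm38), where H2 genes are clustered. B2m lies on chromosome 2, Nlrc5 and Psmb10 on chromosome 8, Ciita on chromosome 16 and Cd74 on chromosome 18. No wild-type gland is among the samples used here, so comparisons were made between cell types of the same glands.

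Class I molecules consist of a heavy chain and the light chain B2m and are displayed on nearly every nucleated cell. Their peptides are cut in the cytosol by the proteasome, pumped into the endoplasmic reticulum by the transporter Tap1-Tap2 and loaded with the help of tapasin (Tapbp). Psmb8, Psmb9 and Psmb10 are the catalytic subunits of the immunoproteasome, which replace Psmb5, Psmb6 and Psmb7 of the constitutive particle. Nlrc5 is the transactivator of class I genes and Ciita that of class II genes, and interferon-gamma raises both sets in many cells. Class II molecules carry peptides from the endosomes of professional antigen-presenting cells, such as dendritic cells and macrophages. There Cd74 occupies the groove until H2-DM exchanges its remnant for a peptide, a step that H2-O restrains. Parathyroid chief cells are endocrine epithelial cells that sense calcium through Casr and secrete parathyroid hormone (Pth).

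After filtering, 1240 barcodes with 39816872 UMIs were kept in replicate 1 and 3313 with 87142723 in replicate 2. Parathyroid barcodes were those in which Pth took at least 5% of UMIs, which gave 660 in replicate 1 (median 37729.5 UMIs) and 2237 in replicate 2 (median 30583). Other parathyroid genes were present: Gcm2, the gene the hosts lack, stood at 157 and 159 CPM, Casr at 349 and 314 CPM, and Kl at 856 and 799 CPM, where CPM is the UMI count scaled to the total of a cell type in a library. Barcodes under 1% Pth were typed by clustering without the members, and a cluster name with the ending "like" rests on marker genes. The types with at least 20 barcodes in each library were fibroblast-like (230 and 453), endothelial-like (106 and 270), macrophage-like (65 and 139), dendritic-like (52 and 48) and T cell-like (36 and 51). Their median depths were 21694 and 19680, 10250 and 7589, 16150 and 15748, 20075.5 and 17523, and 12010 and 8838 UMIs. Leading genes of the T cell-like barcodes were Cd163l1, Trdc and Il17a, which gamma-delta T cells express, and the larger dendritic-like cluster scored almost as high for monocyte markers. Barcodes between 1 and 5% Pth (14 and 22) were left out of the comparisons. Summed markers of the other types stood in parathyroid barcodes at no more than 0.641% of the level in their own type, and Pth stood at 1179 to 1979 CPM in the 5 other types, a level set in part by the 1% limit. In parathyroid barcodes Pth alone took 142700 and 158400 CPM, Chga, a secretory granule protein, 84910 and 76440 CPM, and tdTomato 10090 and 10990 CPM, so that a CPM there has a total filled partly by these transcripts.

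The 2 libraries were separate pools of mice, and p-values measure how far differences between types vary between these pools. The sources do not say how many cells of each other type came from the stem cells, so a difference between parathyroid and other barcodes and a difference between stem cell and host genotype cannot be told apart. Nor do they state the MHC haplotypes of stem cells and hosts. Reads were counted against mm10, and class I heavy chains are close paralogs that differ between haplotypes, so the count of a single heavy chain gene is uncertain where reads can be split among them.

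The upstream sequences of 4 class I genes are shown because these genes, all within the H2 region of chromosome 17, differed from each other across the cell types described below. H2-K1 and H2-Q4 were measured in parathyroid barcodes and in all other types, H2-Q2 was high in parathyroid barcodes and near 0 elsewhere, and H2-Q7 was near 0 in parathyroid barcodes and high in endothelial and immune cells. The sequences are from RefSeq on GRCm38.p6, run 5' to 3' on the strand of the gene and end at the base before the annotated start. Capitals mark matches of GGGATTCCC (a kappa B type site), TTTCACTTC (the core of the interferon response element of class I genes) and CCAAT, or of its reverse complement ATTGG (the Y box core of the MHC enhanceosome). For H2-Q2 the 65 bases nearest the RefSeq start are left out, since they lie past the annotated start used here.
H2-K1 (chr17:34000348-34000547, minus strand): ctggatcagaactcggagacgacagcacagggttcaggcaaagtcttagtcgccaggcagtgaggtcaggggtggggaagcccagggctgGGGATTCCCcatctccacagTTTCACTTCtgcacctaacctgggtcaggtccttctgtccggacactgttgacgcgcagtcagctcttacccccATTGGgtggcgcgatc
H2-Q2 (chr17:35342107-35342241, plus strand): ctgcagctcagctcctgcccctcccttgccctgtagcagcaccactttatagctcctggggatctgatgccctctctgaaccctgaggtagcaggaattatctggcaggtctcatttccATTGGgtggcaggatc
H2-Q4 (chr17:35379417-35379616, plus strand): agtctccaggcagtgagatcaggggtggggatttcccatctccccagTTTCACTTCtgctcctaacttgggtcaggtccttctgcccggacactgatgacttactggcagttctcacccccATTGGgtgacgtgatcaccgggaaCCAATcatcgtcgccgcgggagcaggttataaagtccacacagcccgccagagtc
H2-Q7 (chr17:35438955-35439154, plus strand): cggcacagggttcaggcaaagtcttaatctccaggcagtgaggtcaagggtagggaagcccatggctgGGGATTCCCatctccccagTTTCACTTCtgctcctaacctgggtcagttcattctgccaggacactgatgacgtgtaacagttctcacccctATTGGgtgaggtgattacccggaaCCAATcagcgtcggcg
Of the 44 members, 37 matched an entry of the promoter table. Searched on both strands over the 200 bases before the start, GGGATTCCC was found in 4 of these 37 members (H2-K1, H2-D1, H2-Q6 and H2-Q7) and in 0.213% of 32851 windows of the same length. TTTCACTTC was found in 7 (H2-K1, H2-D1, H2-Q4, H2-Q6, H2-Q7, H2-Q10 and H2-M3) and in 0.307% of windows, and CCAAT in 31 and in 29.3% of windows. Matches are descriptions of these letters and not of bound sites.

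Class I transcripts were lower in parathyroid barcodes than in every other type compared. Summed over the 25 class I genes, parathyroid barcodes stood at 538.5 CPM in replicate 1 (95% Poisson interval 530.3 to 546.8) and 553.3 CPM in replicate 2 (547.9 to 558.8), a mean of 545.9 ± 10.5 CPM (SD, n = 2). The sum was 2.77 and 2.43 times as high in fibroblast-like barcodes (1490 and 1345 CPM), 13.9 times as high in endothelial-like barcodes in both libraries (7466 and 7674 CPM), 10.6 times in both in macrophage-like barcodes (5715 and 5894 CPM), 11.1 and 8.18 times in dendritic-like barcodes (5976 and 4525 CPM) and 12.8 and 9.65 times in T cell-like barcodes (6883 and 5338 CPM). NK-like (7038 and 7429 CPM), ILC2-like (6431 and 6429 CPM) and neutrophil-like barcodes (3961 and 5294 CPM), too few for the test, also stood above the parathyroid barcodes in both libraries. Pericyte and smooth muscle-like barcodes were among the closest, at 791 and 1358 CPM. Intervals and sums cover counting error only. With Pth, Chga and tdTomato UMIs left out of the totals, the parathyroid mean rose to 720 CPM, still below each value above. A cluster left unnamed (6 and 8 barcodes) stood at 428.5 and 180.6 CPM, below the parathyroid barcodes, on 17 and 5 UMIs.

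**Figure D1:**
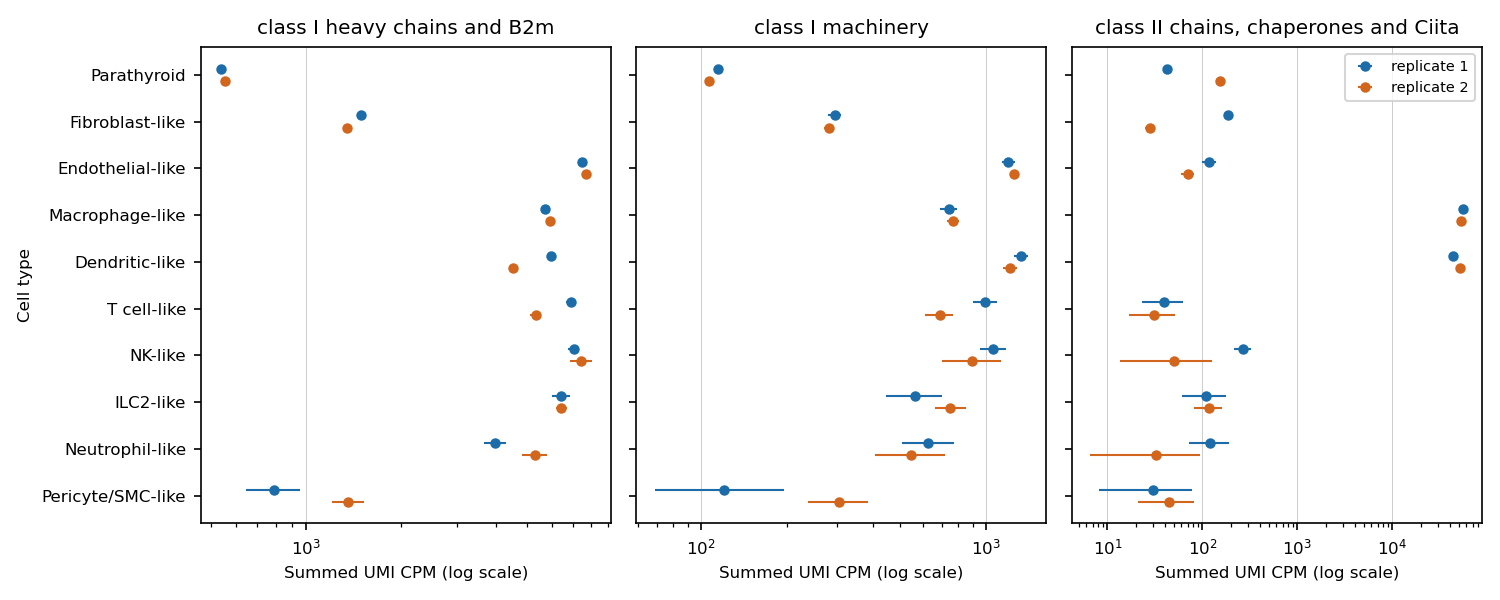
Summed CPM (log scale) of class I genes, class I machinery and class II genes in each cell type, with 1 point per library and bars for the 95% Poisson interval. Parathyroid barcodes lie lowest for class I genes (538.5 and 553.3 CPM) and machinery (115 and 107 CPM). For machinery in replicate 1, pericyte and smooth muscle-like barcodes lie close, at 120.5 CPM on 16 UMIs, with an interval (68.9 to 195.6 CPM) that covers the parathyroid value. Macrophage-like and dendritic-like barcodes lie far to the right of the other compared types for class II genes.

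Each type was compared with the parathyroid barcodes in a single edgeR quasi-likelihood fit over 13287 genes, with Benjamini-Hochberg adjustment at 0.05, in which 32 of the 44 members passed the filter on low counts. A member that passed only through a type where it is high had to differ from types where it is low, so the counts below are descriptions of the tested members. Against fibroblast-like barcodes 15 of 32 were lower in parathyroid barcodes, where 29.6% of all genes tested were lower, and 3 were higher, where 29.8% of all were higher. Against endothelial-like barcodes 18 were lower (25.4% of all genes) and 2 higher (28.7%), against macrophage-like barcodes 30 (29.3%) and 2 (30.7%), against dendritic-like barcodes 30 (25.1%) and 2 (32.1%), and against T cell-like barcodes 17 (17.7%) and 2 (28.3%). Lower calls thus took a larger share of the tested members than of all genes in each comparison, and higher calls a smaller share. All 5 comparisons share the parathyroid sums. Of the 13 class I genes tested, 8 were lower than in fibroblast-like, 11 than in endothelial-like, 12 than in macrophage-like, 12 than in dendritic-like and 9 than in T cell-like barcodes. The median log2 fold change of these class I genes was -1.39, -3.17, -2.77, -2.50 and -2.37 in the same order, where the median of all genes tested was 0.07, 0.16, 0.11, 0.36 and 0.50. DESeq2's size factors moved the medians of all genes to -0.06, 0.03, 0.03, 0.21 and 0.32.

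**Figure D2:**
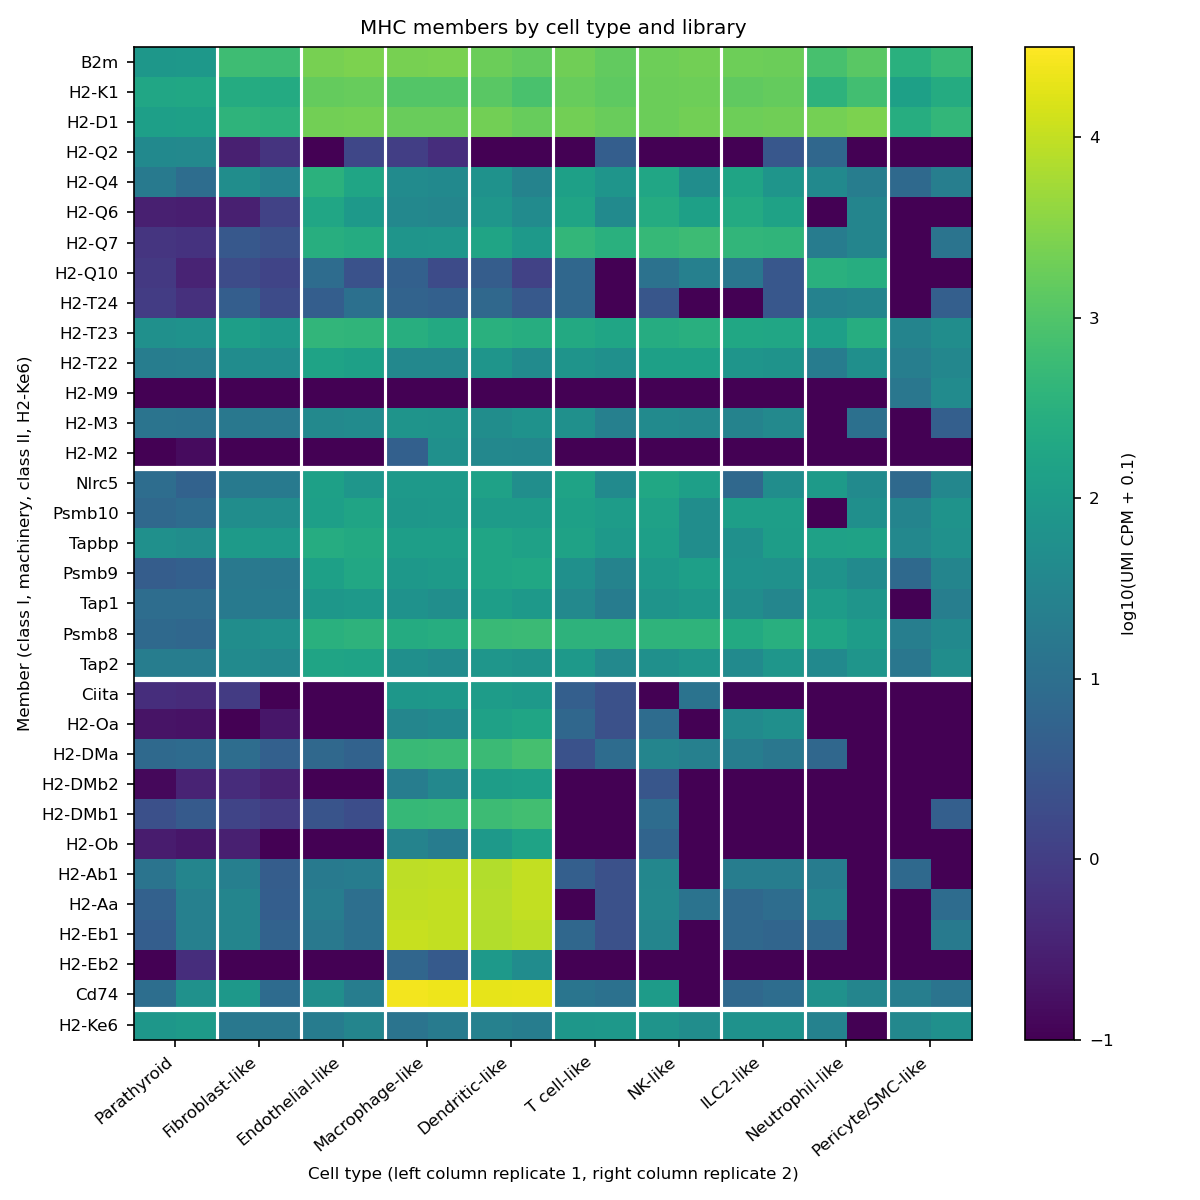
Levels of the members described singly, as log10(CPM + 0.1), in each cell type with 1 column per library. The parathyroid columns are dark across most of the class II block and brighter for H2-K1, H2-D1 and H2-Ke6, while H2-Q6 and H2-Q7 are dark in parathyroid and fibroblast-like columns and bright in endothelial-like and T cell-like columns.

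Of B2m, H2-K1 and H2-D1, the light chain B2m showed the widest gap in each comparison. B2m stood at 80.8 and 86.7 CPM in parathyroid barcodes, against 633.9 and 581.1 CPM in fibroblast-like, 2351 and 2638 CPM in endothelial-like, 2322 and 2511 CPM in macrophage-like, 1819 and 1484 CPM in dendritic-like and 2036 and 1503 CPM in T cell-like barcodes. The parathyroid values lay below both values of each of these 5 types. The log2 fold change of parathyroid against fibroblast-like barcodes was -2.77 (SE 0.18, edgeR adjusted p = 7.1e-08) and against endothelial-like barcodes -4.65 (SE 0.20, adjusted p = 3.28e-09). A parathyroid barcode held a median of 3 and 2 B2m UMIs, although it was deeper than a fibroblast-like barcode, which held 12 and 11. No B2m UMI was found in 74 (11.2%) and 305 (13.6%) parathyroid barcodes, against 2 and 5 fibroblast-like barcodes. After each barcode had been thinned to 5000 UMIs, which left out 16 and 34 shallower parathyroid and 4 and 10 fibroblast-like barcodes, 32.1% and 32.5% of parathyroid barcodes held a B2m UMI, against 91.2% and 91.9% of fibroblast-like barcodes. The unthinned parathyroid shares were 88.8% and 86.4%.

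The classical heavy chains H2-K1 and H2-D1, which present peptides to CD8 T cells, differed in how far they lay from fibroblasts. H2-D1 stood at 126 and 132 CPM in parathyroid barcodes and at 370 and 350 CPM in fibroblast-like barcodes (log2 fold change -1.39, SE 0.16, edgeR adjusted p = 7.42e-06). H2-K1 stood at 181 and 188 CPM against 241 and 233 CPM, a difference that did not pass the test (log2 fold change -0.27, SE 0.18, adjusted p = 0.223). In the other types both genes were far higher. H2-K1 reached 1584 and 1669 CPM and H2-D1 2131 and 2250 CPM in endothelial-like barcodes, and in macrophage-like barcodes they reached 1080 and 1058 CPM and 1753 and 1782 CPM. Dendritic-like barcodes held H2-K1 at 1257 and 822 CPM and H2-D1 at 2113 and 1634 CPM, and T cell-like barcodes at 1656 and 1380 CPM and 2082 and 1759 CPM. Against these 4 types H2-K1 was lower in parathyroid barcodes by log2 fold changes of -2.89, -2.61, -2.50 and -2.66 and H2-D1 by -3.84, -3.85, -3.87 and -3.52, all called.

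The balance between these heavy chains also differed. H2-K1 gave 58.9% of H2-K1 and H2-D1 UMIs in replicate 1 (exact binomial interval 57.9 to 59.9%) and 58.8% in replicate 2 (58.2 to 59.5%). The share was 39.4% and 39.96% in fibroblast-like, 42.6% and 42.6% in endothelial-like, 38.1% and 37.3% in macrophage-like, 37.3% and 33.5% in dendritic-like, 44.3% and 44.0% in T cell-like, 43.2% and 44.1% in ILC2-like and 49.4% and 47.7% in NK-like barcodes. None of these 7 types reached the parathyroid share in either library. The share was nearly the same in the 2 parathyroid libraries, with overlapping intervals.

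H2-T23, which encodes the heavy chain of Qa-1, a ligand of NK cell receptors, stood at 57.4 and 62.8 CPM in parathyroid barcodes against 122 and 84.1 CPM in fibroblast-like barcodes (log2 fold change -0.66, SE 0.19, edgeR adjusted p = 0.00815, and 0.0781 with no filter on low counts). It was at 413 and 407 CPM in endothelial-like barcodes. H2-T22, a ligand of some gamma-delta T cells, stood at 21.3 and 22.03 CPM against 47.5 and 46.5 CPM in fibroblast-like barcodes (log2 fold change -1.03, SE 0.18, adjusted p = 0.000359). H2-M3, which presents peptides with a formyl group, lay at 12.7 and 12.1 CPM, close to the 15.6 and 16.9 CPM of fibroblast-like barcodes (log2 fold change -0.31, SE 0.23, adjusted p = 0.272). In the other 4 types H2-M3 reached 24.2 to 68.7 CPM and was called higher than in parathyroid barcodes. For H2-T22 the smallest called difference was from macrophage-like barcodes, at 37.6 and 36.5 CPM (log2 fold change -0.86, SE 0.21, adjusted p = 0.00407).

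The Q region genes split in opposite directions. H2-Q6 and H2-Q7 encode Qa-2, a class I molecule anchored to the membrane by a lipid. H2-Q7 stood at 0.594 and 0.546 CPM in parathyroid barcodes and at 3.23 and 2.25 CPM in fibroblast-like barcodes, against 279 and 245 CPM in endothelial-like and 430 and 317 CPM in T cell-like barcodes. H2-Q6 stood at 0.198 and 0.196 CPM in parathyroid barcodes and at 182 and 95.6 CPM in endothelial-like barcodes. Against endothelial-like barcodes the log2 fold changes were -8.54 (SE 0.30) for H2-Q7 and -8.96 (SE 0.47) for H2-Q6. H2-Q4 was intermediate, at 17.2 and 8.99 CPM against 49.3 and 26.8 CPM in fibroblast-like and 320 and 175 CPM in endothelial-like barcodes. In each of these 3 types H2-Q4 was higher in replicate 1.

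H2-Q2 ran the other way. H2-Q2 (ENSMUSG00000091705), a class I gene of the same region, stood at 39.7 and 38.9 CPM in parathyroid barcodes. In fibroblast-like barcodes it stood at 0.202 and 0.562 CPM, in endothelial-like at 0 and 1.41 CPM, in macrophage-like at 0.941 and 0.435 CPM and in T cell-like at 0 and 4.40 CPM, and 0 UMIs were found in dendritic-like barcodes. The parathyroid values lay above every value of the other types, with log2 fold changes of 6.57 (SE 0.44, edgeR adjusted p = 1.96e-07) against fibroblast-like, 5.68 (SE 0.55, adjusted p = 4.85e-06) against endothelial-like, 5.96 (SE 0.61, adjusted p = 6.87e-06) against macrophage-like and 4.496 (SE 0.69, adjusted p = 0.00029) against T cell-like barcodes. Against dendritic-like barcodes it was at least 24.4-fold higher, with the floor set at 3 UMIs over both libraries. After thinning to 5000 UMIs a H2-Q2 UMI was found in 19.2% and 19.5% of parathyroid barcodes and in no more than 3.92% of barcodes of any other type compared. Unthinned, 25.2% and 32.5% of parathyroid barcodes held no H2-Q2 UMI. Scaled to UMIs other than Pth, H2-Q2 stood at 40.4 and 43.96 CPM in barcodes with 5 to 10% Pth and at 53.1 and 45.7 CPM in those with at least 20%.

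**Figure D3:**
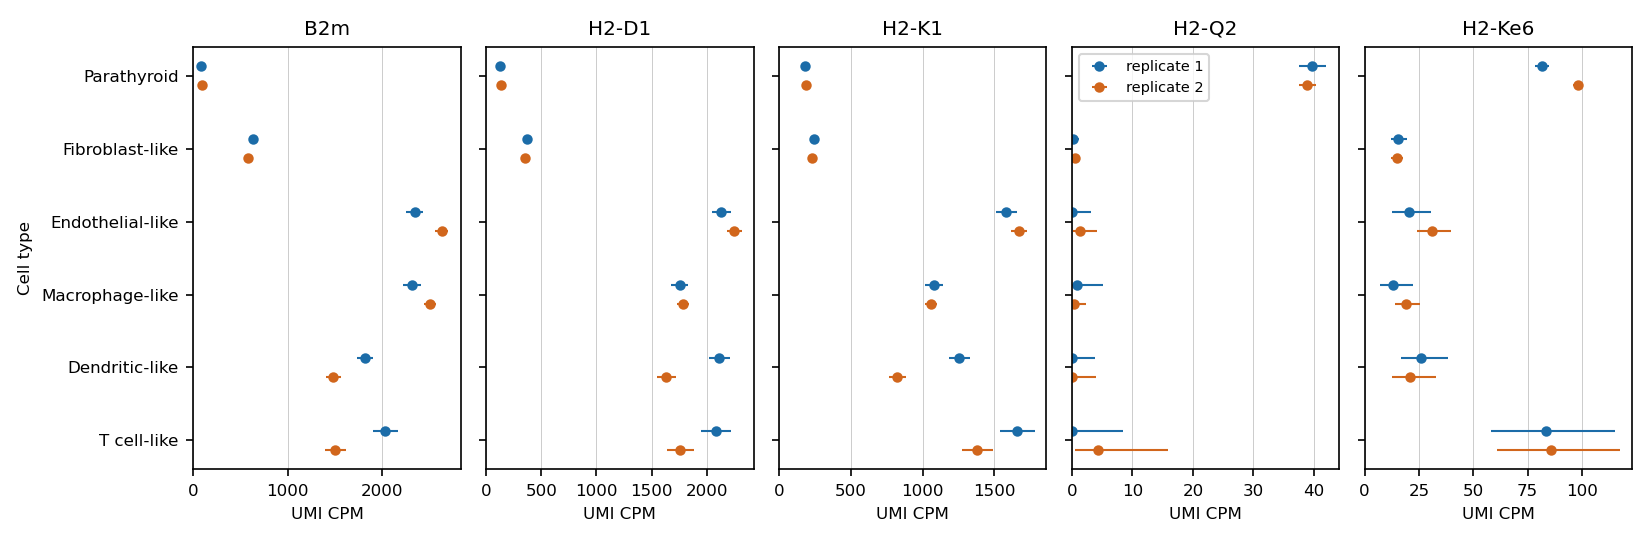
CPM of B2m, H2-D1, H2-K1, H2-Q2 and H2-Ke6 by cell type on linear axes from 0, with 1 point per library and 95% Poisson intervals. B2m, H2-D1 and H2-K1 are lowest in parathyroid barcodes, while H2-Q2 stands at 39.7 and 38.9 CPM there and near 0 elsewhere.

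H2-Ke6, the dehydrogenase gene of the region, was also high in parathyroid barcodes but was shared with lymphoid cells. It stood at 81.6 and 98.1 CPM there, against 15.6 and 14.7 CPM in fibroblast-like, 20.3 and 31.1 CPM in endothelial-like, 13.2 and 19.1 CPM in macrophage-like and 26.1 and 20.9 CPM in dendritic-like barcodes. The log2 fold change against fibroblast-like barcodes was 2.66 (SE 0.20, edgeR adjusted p = 2.68e-07). T cell-like barcodes held H2-Ke6 at 83.3 and 85.8 CPM, and the difference from parathyroid barcodes did not pass the test (log2 fold change 0.46, SE 0.23, adjusted p = 0.124). NK-like (69.6 and 49.7 CPM) and ILC2-like barcodes (64.9 and 64.0 CPM) lay closer to the parathyroid level than the stromal types did.

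Class I UMIs were found in nearly all parathyroid barcodes, with medians of 20 and 16 UMIs per barcode against 30 and 24 in fibroblast-like and 78 and 57 in endothelial-like barcodes. No class I UMI was found in 9 (1.36%) and 10 (0.447%) parathyroid barcodes. Single parathyroid barcodes ran from 344 and 335 CPM at the 10th percentile to 773 and 768 CPM at the 90th. Of the parathyroid barcodes, 52 (7.88%) and 400 (17.9%) reached the 10th percentile of fibroblast-like barcodes, 0 and 0 that of endothelial-like barcodes, and 0 and 4 that of dendritic-like barcodes. Scaled to UMIs other than Pth, class I genes stood at 618 and 645 CPM in barcodes with 10 to 15% Pth, at 657 and 650 in those with 15 to 20% and at 701 and 704 in those with at least 20%. The libraries parted in barcodes with 5 to 10% Pth, at 527 in replicate 1 (34 barcodes) and 916 in replicate 2 (55 barcodes), and in replicate 2 B2m stood at 221 there against 103 in the next band. Without the 3 barcodes of that band with at least 10 UMIs of immune genes (defined below), class I genes stood at 785 CPM and B2m at 174 CPM in replicate 2.

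All 7 machinery genes were lower in parathyroid barcodes than in each of the 5 other types. In edgeR 0 were higher, at an unadjusted p under 0.05 as well as after adjustment, and DESeq2 also called 0 higher. Over all genes tested, 17.7 to 29.6% were called lower and 28.3 to 32.1% higher in these edgeR comparisons. Their sum stood at 115 and 107 CPM in parathyroid barcodes, against 295 and 281 CPM in fibroblast-like, 1198 and 1257 CPM in endothelial-like, 740 and 765 CPM in macrophage-like, 1326 and 1214 CPM in dendritic-like and 990 and 687 CPM in T cell-like barcodes. The median log2 fold change of the 7 genes was -1.39 against fibroblast-like and -3.63 against endothelial-like barcodes.

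The immunoproteasome subunits showed the widest differences of the 7 from fibroblast-like and endothelial-like barcodes. Psmb8 stood at 7.63 and 6.64 CPM in parathyroid barcodes and at 50.1 and 56.6 CPM in fibroblast-like barcodes (log2 fold change -2.82, SE 0.18, edgeR adjusted p = 7.11e-08). In endothelial-like barcodes Psmb8 reached 308 and 361 CPM and in dendritic-like barcodes 534 and 569 CPM. Psmb9 stood at 4.13 and 4.64 CPM against 16.4 and 15.7 CPM in fibroblast-like barcodes (log2 fold change -1.78, SE 0.24, adjusted p = 4.46e-05), and Psmb10 at 7.10 and 8.59 CPM against 48.7 and 49.1 CPM (log2 fold change -2.55, SE 0.19, adjusted p = 1.96e-07). Their constitutive counterparts went the opposite way. Psmb5 stood at 138 and 169 CPM in parathyroid and 53.0 and 87.4 CPM in fibroblast-like barcodes (log2 fold change 1.25, SE 0.17, adjusted p = 4.75e-05), Psmb6 at 152 and 173 CPM against 65.9 and 101 CPM (1.07, adjusted p = 0.000376) and Psmb7 at 84.4 and 95.2 CPM against 52.7 and 54.7 CPM (0.83, adjusted p = 0.0011).

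As a share of all UMIs of the 6 catalytic subunits, Psmb8, Psmb9 and Psmb10 took 4.80% (exact binomial interval 4.42 to 5.20%) and 4.35% (4.13 to 4.57%) in parathyroid barcodes. The share was 40.2% and 33.3% in fibroblast-like, 69.0% and 66.3% in endothelial-like, 65.1% and 61.7% in macrophage-like, 76.8% and 70.0% in dendritic-like and 69.6% and 66.2% in T cell-like barcodes. In parathyroid barcodes Psmb8 took 5.24% and 3.79% of its pair with Psmb5, Psmb9 2.65% and 2.61% of its pair with Psmb6, and Psmb10 7.75% and 8.27% of its pair with Psmb7. These shares do not depend on the total taken by Pth and Chga, since both genes of a pair have the same total.

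**Figure D4:**
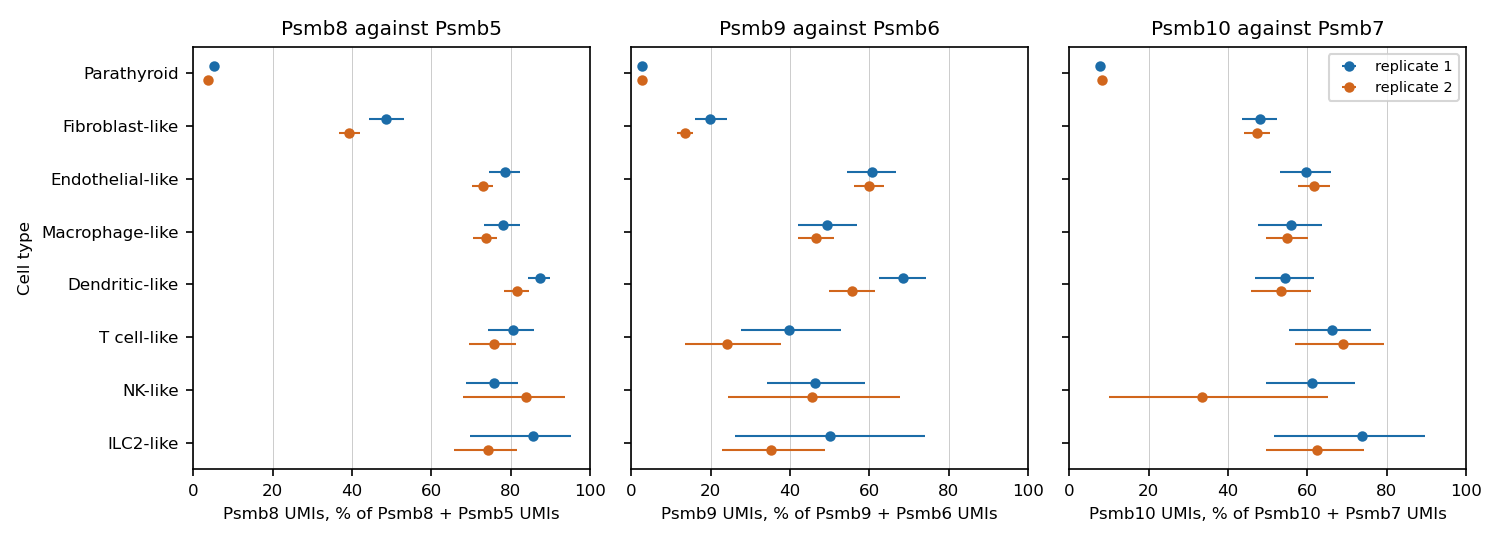
Share of UMIs of each catalytic proteasome pair that came from the immunoproteasome subunit, from 0 to 100%, by cell type with 1 point per library and exact binomial intervals. Parathyroid barcodes lie at 2.61 to 8.27% in all 3 pairs, to the left of all other types drawn.

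The transporter and loading genes differed less from fibroblast-like barcodes. Tap1 stood at 9.18 and 9.37 CPM in parathyroid barcodes against 18.0 and 17.4 CPM in fibroblast-like and 82.0 and 89.0 CPM in endothelial-like barcodes. Tap2 stood at 21.6 and 21.5 CPM against 43.0 and 34.9 CPM and 167 and 152 CPM, and Tapbp at 56.3 and 50.8 CPM against 100 and 88.0 CPM and 249 and 218 CPM. The log2 fold changes against fibroblast-like barcodes were -0.85 for Tap1, -0.75 for Tap2 and -0.73 for Tapbp (edgeR adjusted p = 0.00324, 0.00593 and 0.00394). The class I transactivator Nlrc5 stood at 8.95 CPM in replicate 1 and 5.36 CPM in replicate 2 of the parathyroid barcodes, against 18.2 and 18.8 CPM in fibroblast-like (log2 fold change -1.39, SE 0.34, adjusted p = 0.00396) and 134 and 77.7 CPM in endothelial-like barcodes. In T cell-like (157 and 41.8 CPM) and dendritic-like barcodes (143 and 51.8 CPM) Nlrc5 was also higher in replicate 1, while in macrophage-like barcodes it stood at 95.9 and 90.4 CPM.

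Class II transcripts were at a trace level in parathyroid, fibroblast-like, endothelial-like and T cell-like barcodes and abundant in macrophage-like and dendritic-like barcodes. The class II sum was 42.6 CPM in replicate 1 and 154.8 CPM in replicate 2 of the parathyroid barcodes, 184.5 and 28.0 CPM in fibroblast-like, 117 and 69.7 CPM in endothelial-like and 39.3 and 30.8 CPM in T cell-like barcodes. It was 55400 and 52740 CPM in macrophage-like and 43910 and 51370 CPM in dendritic-like barcodes. In edgeR all 11 class II genes were lower in parathyroid barcodes than in either of these types. Of all genes tested, 29.3% were lower against macrophage-like and 25.1% against dendritic-like barcodes. A member that passed the filter on low counts only through these types had to differ, so these calls are descriptions. In DESeq2 10 of the 11 were lower, without H2-Eb2 (DESeq2 adjusted p = 0.431 against macrophage-like and 0.135 against dendritic-like barcodes). Cd74 stood at 9.77 and 60.3 CPM in parathyroid barcodes against 25410 and 22760 CPM in macrophage-like barcodes (log2 fold change -9.38, SE 1.15, edgeR adjusted p = 1.91e-05), and H2-Ab1 at 13.0 and 31.7 CPM against 8792 and 9198 CPM (log2 fold change -8.72, SE 0.70, adjusted p = 4.46e-07). The transactivator Ciita, at 81.8 and 86.1 CPM in macrophage-like barcodes, stood at 0.429 and 0.378 CPM in parathyroid barcodes (log2 fold change -7.75, SE 0.35, adjusted p = 9.8e-09). H2-DMa, the alpha chain of the exchange factor, stood at 7.49 and 8.14 CPM in parathyroid barcodes against 546 and 574 CPM in macrophage-like and 561 and 771 CPM in dendritic-like barcodes.

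Against fibroblast-like barcodes edgeR called 0 of 11 class II genes lower in parathyroid barcodes, with 0 at an unadjusted p under 0.05 and 0 by DESeq2. In that edgeR comparison 29.6% of all genes tested were lower. Against endothelial-like barcodes the same counts were 0 in both directions, where edgeR called 25.4% of all genes tested lower and 28.7% higher. Against T cell-like barcodes H2-Oa was called lower, at 0.0990 and 0.0839 CPM against 6.94 and 2.20 CPM. These T cell-like values rest on 3 UMIs in replicate 1 and 1 UMI in replicate 2. Their Poisson intervals ran from 1.43 to 20.3 CPM and from 0.0557 to 12.3 CPM, and the interval of replicate 2 covers the parathyroid value. The spread between libraries was wide for the abundant class II genes. H2-Aa stood at 5.08 and 25.3 CPM in parathyroid and 31.3 and 4.38 CPM in fibroblast-like barcodes, and H2-Eb1 at 4.39 and 24.6 CPM against 32.3 and 5.28 CPM, so that the order of the types was opposite in the 2 libraries. H2-Ab1, at 23.2 and 4.16 CPM in fibroblast-like barcodes, had a log2 fold change of 0.87 (adjusted p = 0.212) that ran from -0.33, with types set by markers without clusters, to 2.13 (adjusted p = 0.000185), with other types held under 0.3% Pth. H2-DMb1, a chain of the peptide exchange factor, was called higher in parathyroid (2.11 and 3.595 CPM) than in fibroblast-like barcodes (1.21 and 0.786 CPM; log2 fold change 1.69, SE 0.37, edgeR adjusted p = 0.002). It was also called higher than in T cell-like barcodes, which held 0 H2-DMb1 UMIs, but the floor of 3 UMIs there allows no fold to be given, and DESeq2 did not call it (adjusted p = 0.0926). With types set by markers without clusters, the H2-DMb1 difference from fibroblast-like barcodes was 0.35 on the log2 scale and did not pass (adjusted p = 0.409).

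A few barcodes held most class II UMIs of the parathyroid type in replicate 2. Counting UMIs of the immune genes Ptprc, Tyrobp, Lyz2 and C1qa, 1 parathyroid barcode in replicate 1 and 10 in replicate 2 had at least 10, and these held 0.233% and 78.7% of class II UMIs and 1.01% and 89.6% of Cd74 UMIs. Replicate 2 had 8 parathyroid barcodes with at least 100 Cd74 UMIs, from 221 to 716, and replicate 1 had 0. Those 8 had 12 to 391 immune UMIs and 8.93 to 14.78% Pth. The 10 barcodes had a median of 46140 UMIs, against 30580 over all parathyroid barcodes of replicate 2, and were kept because Scrublet did not call them doublets. Their Scrublet scores, on a scale of 0 to 100%, had a median of 27.8% and ran up to 43.8%, against a median of 9.76% over all parathyroid barcodes of replicate 2. A score of at least 0.25, on a scale of 0 to 1, was found in 5 of the 10 and in 60 of all 2237. Without the barcodes with at least 10 immune UMIs, a limit chosen after the values were seen, the class II sum was 42.6 and 33.2 CPM. A single fibroblast-like barcode of 230 in replicate 1, with 10 immune UMIs, held 71.8% of class II UMIs of its type there, and without such barcodes the fibroblast-like sum was 52.0 and 27.9 CPM.

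**Figure D5:**
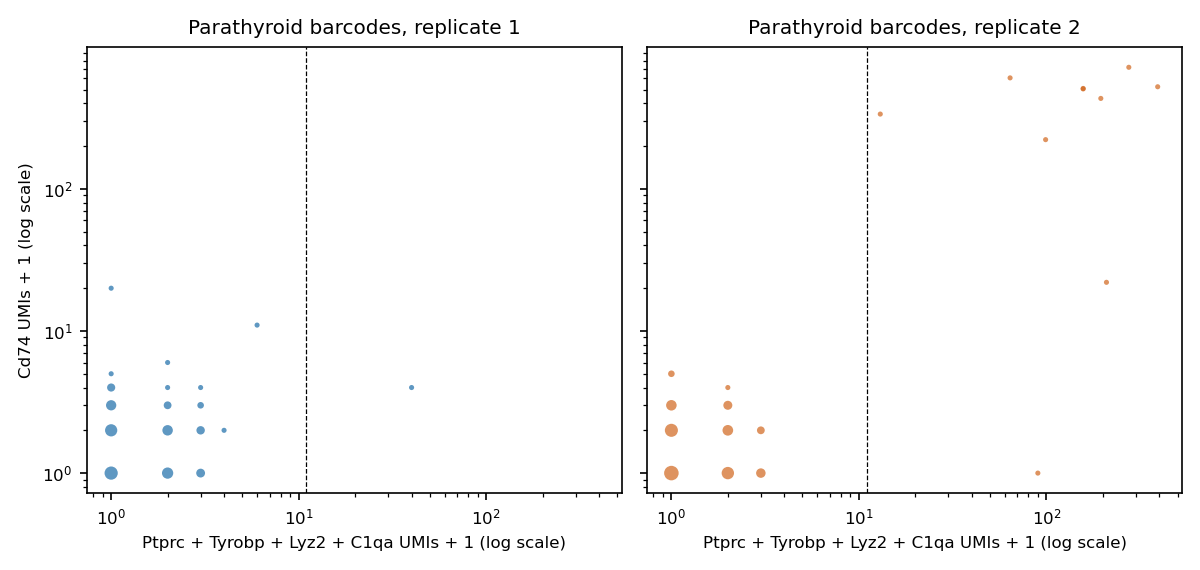
Cd74 UMIs + 1 against summed Ptprc, Tyrobp, Lyz2 and C1qa UMIs + 1 for each parathyroid barcode, both on log scales, with 1 panel per library and a dashed line at 10 immune UMIs. Replicate 2 shows 8 barcodes with 221 to 716 Cd74 UMIs to the right of the line, and replicate 1 shows none.

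What remained in the other parathyroid barcodes had a different makeup from professional cells. H2-Ab1 stood at 13.0 and 11.9 CPM, Cd74 at 9.69 and 6.33 CPM, H2-DMa at 7.51 and 6.85 CPM, H2-Aa at 5.10 and 2.78 CPM, H2-Eb1 at 4.40 and 2.73 CPM and H2-DMb1 at 2.12 and 2.23 CPM. There were 1.35 and 1.88 H2-Ab1 UMIs for each Cd74 UMI in these parathyroid barcodes. The values were 0.346 and 0.404 in macrophage-like barcodes, 0.380 and 0.459 in dendritic-like barcodes and 0.367 in the 10 barcodes of replicate 2 left out. Types with few class II UMIs varied, at 0.271 and 0.507 in fibroblast-like, 0.339 and 0.957 in endothelial-like and 0.333 and 0.2 in T cell-like barcodes. ILC2-like barcodes had 3 and 2.33, on 1 and 3 Cd74 UMIs. Over all parathyroid barcodes, summed macrophage markers stood at 0.0541% and 0.232% of their macrophage-like level. Whether RNA of other cells gave the remaining class II UMIs was not tested. After thinning to 5000 UMIs, 6.68% and 5.72% of all parathyroid barcodes held a H2-Ab1 UMI, against 3.54% and 1.58% of fibroblast-like, 8% and 6.45% of endothelial-like and 0% and 0% of T cell-like barcodes. The Cd74 shares were 3.57% and 3.72% in parathyroid, 12.8% and 4.74% in fibroblast-like, 15.0% and 6.855% in endothelial-like and 8.33% and 5.88% in T cell-like barcodes. The T cell-like shares rest on 3 of 36 and 3 of 51 barcodes, with exact binomial intervals of 1.75 to 22.5% and 1.23 to 16.2%. An alternative also chosen after seeing the data left barcodes of at least 10 immune UMIs out of parathyroid, fibroblast-like and endothelial-like barcodes. The log2 fold changes of parathyroid against fibroblast-like barcodes were then 1.30 for H2-Ab1, -0.83 for H2-Eb1, -0.43 for H2-Aa and -0.57 for Cd74. No call is drawn from these values. The barcodes left out held most parathyroid class II UMIs of replicate 2 and most fibroblast-like ones of replicate 1.

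Among the other types, endothelial-like barcodes stood above fibroblast-like barcodes across class I. Of 32 members 16 were higher, where 20.1% of all genes were, and 0 lower in edgeR, at an unadjusted p under 0.05 or by DESeq2, where 22.6% of all genes were lower. The 16 were 9 class I genes and all 7 machinery genes. B2m differed by a log2 fold change of 1.88 (SE 0.17), H2-K1 by 2.62 (SE 0.19), H2-D1 by 2.44 (SE 0.16), Psmb8 by 2.48 and Psmb9 by 3.20, and the Qa-2 genes H2-Q6 and H2-Q7 by 7.13 and 6.44.

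Dendritic-like and macrophage-like barcodes, the class II carriers, differed in 8 members. Of 32 members 7 were higher in dendritic-like barcodes (5.37% of all genes were) and 1 was lower (8.66% of all). H2-Oa and H2-Ob, the chains of the H2-DM inhibitor, were higher in dendritic-like barcodes. H2-Oa stood at 139 and 174 CPM against 33.9 and 40.4 CPM (log2 fold change 2.00, SE 0.23, edgeR adjusted p = 0.000227) and H2-Ob at 93.8 and 157 CPM against 28.2 and 20.4 CPM (2.34, adjusted p = 0.0012). H2-DMb2, the variant beta chain of H2-DM, stood at 115 and 125 CPM against 21.6 and 37.4 CPM. Psmb8, Psmb9 and Tap1 were higher by 1.07, 0.92 and 0.87 on the log2 scale. H2-Eb2 stood at 93.8 and 46.3 CPM against 6.58 and 3.48 CPM (adjusted p = 0.0189, but 0.703 in DESeq2). B2m was the member called lower, by -0.61 (adjusted p = 0.0315), at 1819 and 1484 CPM against 2322 and 2511 CPM. This call was lost without the library block (adjusted p = 0.0702) and with both other ways of typing, and the calls of Psmb9 (adjusted p = 0.101 at a Leiden resolution of 2) and Tap1 (adjusted p = 0.125 with types set by markers) were each lost in 1 alternative. Cd74 (log2 fold change -0.29, adjusted p = 0.876) and H2-Ab1 (-0.13, adjusted p = 0.922) did not pass.

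Within the dendritic-like type 2 clusters, formed without the members, carried different class II sets in both libraries. The cluster led by Ccr7 and Ccl22, genes of migrating dendritic cells, had 11 and 5 barcodes, and the cluster led by Cd209a and Flt3 had 41 and 43. Leading genes of the Cd209a cluster also included Hist1h1b and the cycling markers Top2a and Mki67. At a Leiden resolution of 2, a cluster led by Hist1h1b and Top2a (14 and 37 barcodes) was left unnamed, and the Cd209a cluster had 30 and 19. H2-DMa stood at 87.0 and 71.5 CPM in the first and 691 and 856 CPM in the second, H2-DMb1 at 33.8 and 81.7 CPM against 731 and 776 CPM, and H2-Oa at 38.7 and 71.5 CPM against 166 and 187 CPM. In the opposite direction H2-Eb2 stood at 367 and 358 CPM against 18.6 and 8.65 CPM, H2-M2, a class I gene of the M region, at 160 and 327 CPM against 3.99 and 0 CPM, B2m at 3287 and 3309 CPM against 1416 and 1263 CPM, H2-K1 at 2393 and 2145 CPM against 945 and 662 CPM and Psmb8 at 846 and 1318 CPM against 448 and 478 CPM. Cd74 stood at 7885 and 15900 CPM against 22700 and 21930 CPM. These clusters were not tested against each other, and the first rests on 16 barcodes.

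Macrophage-like barcodes also varied by cluster. In the cluster led by F13a1, Pf4, Retnla and Mrc1 (9 and 43 barcodes) H2-Ab1 stood at 4681 and 6128 CPM, against 8519 and 10780 CPM and 9857 and 10400 CPM in the other clusters of the type. H2-Oa there was 0 and 1.44 CPM, against 10.3 and 23.6 CPM and 57.4 and 74.9 CPM. Within fibroblast-like barcodes B2m ranged over 5 clusters from 453 to 822 CPM in replicate 1 and from 518 to 675 CPM in replicate 2, so that the highest cluster lay below every value of the endothelial-like type.

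Other genes of the pathway, from lists chosen with earlier results of these data known, were compared with fibroblast-like barcodes in the same edgeR fit. In that comparison 29.6% of all genes tested were lower in parathyroid barcodes and 29.8% higher, shares that apply beside the count of each list below. All 3 constitutive catalytic subunits were higher in parathyroid barcodes, as given above. Of 5 loading and trimming genes Erap1, an aminopeptidase that trims class I peptides, was lower (log2 fold change -0.56, adjusted p = 0.0307), and Calr, Canx, Pdia3 and Tapbpl did not pass. Of 3 proteasome activator genes Psme1 was lower, at 58.7 and 63.9 CPM against 103 and 101 CPM (log2 fold change -0.64, adjusted p = 0.0195). Of 4 interferon receptor genes 3 were lower, with Ifngr1, the ligand-binding chain of the interferon-gamma receptor, at 23.4 and 26.4 CPM against 223 and 227 CPM (log2 fold change -3.10, SE 0.26, adjusted p = 6.02e-07). Ifngr2 (-1.46) and Ifnar1 (-0.89) were the others, and Ifnar2 did not pass (-0.43, adjusted p = 0.0579).

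Of 11 regulators of MHC genes 4 were lower than in fibroblast-like barcodes, where 29.6% of all genes were, and 1 was higher, where 29.8% of all were. Irf1, an interferon-induced activator of class I genes, stood at 88.7 and 72.0 CPM against 502 and 572 CPM (log2 fold change -2.68, SE 0.38, edgeR adjusted p = 5.73e-05). Creb1 (-1.04), Rela (-0.98) and Irf2 (-0.77) were also lower. Rfxap, a subunit of the RFX complex that binds class II promoters, was higher (0.99, adjusted p = 0.00215), while Rfx5 (0.64, adjusted p = 0.0776) and Rfxank did not pass. Against endothelial-like barcodes 6 of 11 regulators were lower (25.4% of all genes were) and 1 higher (28.7% of all), and all 4 interferon receptor genes were lower.

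Of 4 class II processing genes Lgmn, an endosomal protease, was far higher in parathyroid than in fibroblast-like barcodes, at 201 and 172 CPM against 7.28 and 4.83 CPM (log2 fold change 5.06, SE 0.29, edgeR adjusted p = 3.25e-08). Macrophage-like barcodes held more Lgmn, at 540 and 480 CPM. Ctsl (-1.78, adjusted p = 4.24e-05) and Ifi30 (-1.36, adjusted p = 3.15e-05) were lower, and Ctss, at 0.561 and 4.98 CPM in parathyroid barcodes, did not pass. Of 4 class I like genes outside the H2 region Fcgrt, the neonatal Fc receptor that also pairs with B2m, was lower at 60.6 and 65.2 CPM against 210 and 210 CPM (log2 fold change -1.65, SE 0.20, adjusted p = 1.26e-05). Mr1, Hfe and Cd1d1 did not pass.

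The remaining members were found mainly outside the parathyroid barcodes or not at all. H2-Q10, a secreted class I protein, stood at 317 and 267 CPM in neutrophil-like barcodes and at 0.726 and 0.252 CPM in parathyroid barcodes, and H2-T24 at 27.0 and 32.1 CPM against 0.858 and 0.490 CPM. H2-M9 reached 15.1 and 44.2 CPM in pericyte and smooth muscle-like barcodes. Neutrophil-like barcodes numbered 21 and 16, with totals of 148183 and 93505 UMIs. Pericyte and smooth muscle-like barcodes numbered 10 and 22, with totals of 132830 and 226073 UMIs. The H2-T24 and H2-M9 values in these types thus rest on few UMIs. Macrophage-like barcodes held H2-M2 at 4.70 CPM in replicate 1 and 58.7 CPM in replicate 2. Of the 11 members below a mean of 20 CPM in every type, 7 (H2-M1, H2-M11, H2-M10.1, H2-M10.3, H2-M10.4, H2-M10.5 and H2-M10.6) had 0 UMIs in every type and 4 (H2-Q1, H2-T3, H2-M5 and H2-M10.2) reached highest means of 0.00699 to 7.99 CPM. Between the 2 libraries of parathyroid barcodes, H2-K1 (ratio of replicate 2 to replicate 1 of 1.04), H2-D1 (1.05), H2-Q2 (0.979) and Tap2 (0.997) were close. The Poisson intervals of the 2 libraries lay apart for 13 members. Among these, Nlrc5 (0.599), H2-Q4 (0.522) and H2-Q10 (0.347) were lower in replicate 2, and Cd74 (6.17), H2-Eb1 (5.60), H2-Aa (4.97) and H2-Ab1 (2.44) were higher. The other 6 of the 13 were B2m, Tapbp, H2-Ke6, H2-T23, H2-DMb1 and H2-Eb2. Without the barcodes of at least 10 immune UMIs, Cd74, H2-Eb1 and H2-Aa were lower in replicate 2, by the values given above. The intervals then overlapped for H2-Ab1 (13.0 and 11.9 CPM), H2-DMb1 (2.12 and 2.23 CPM) and H2-Eb2 (0 and 2 UMIs).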

How the data were processed

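Droplet single-cell RNA-seq libraries of transcript 3' ends were made from 2 pools of glands. The authors deposited raw UMI counts for each gene in each barcode, made with Cell Ranger 7.0.0 (per the submitters' processing notes) against mm10 (per the file headers). Barcodes with under 500 genes, at least 15% mitochondrial or 5% haemoglobin UMIs were left out (166 and 205, including 23 and 6 doublets predicted by Scrublet); 3 barcode sequences occur in both libraries, 2 of them among those kept. Other barcodes were clustered with scanpy 1.11.5 (2000 variable genes without the members, 30 components, 15 neighbours, Leiden resolution 1) and named from 131 markers of 21 types; the score used for naming was set after the clusters had been seen. UMI counts were summed per type and library (12 sums) and fitted with edgeR 4.0.16 (TMM, filterByExpr, quasi-likelihood, Benjamini-Hochberg), with library as a block because types of a library share their mice, which left 5 residual degrees of freedom. The SE of a log2 fold change is its size divided by the square root of the F statistic. DESeq2 1.42.0 was an alternative. In counts simulated for parathyroid against fibroblast-like sums over 12046 genes, 32% of genes changed 2-fold, 98% changed 4-fold and 0.076% of unchanged genes were called. The simulation changed 50 genes at each fold, gave all types 1 mean profile and used library effects shared by all types. In the data 29.8% of genes were called higher and 29.6% lower in that comparison, so the simulated rates do not carry over to it. Members of at least 20 CPM in a type were described singly. Values of 1 gene of the regulator list are not reported here. The members and lists were chosen with earlier results of these data known.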

Additional observations from a re-analysis of the deposited data

How the results depend on the processing

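Of the comparisons between types and the summed levels and shares, 283 alternative values stayed on the same side and 28 moved; of single members 543 stayed, 8 gained and 11 lost their call and 10 reversed. The counts of members called lower in parathyroid barcodes stayed within 1.5 times in every alternative run. Members called higher in parathyroid barcodes came to 5 against fibroblast-like, 5 against endothelial-like and 6 against T cell-like barcodes with no filter beyond 1 UMI, to 5 against fibroblast-like with other types under 0.3% Pth, to 4 against T cell-like with Pth of at least 2%, and to 1 against T cell-like without parathyroid barcodes of at least 10 immune UMIs (chosen after seeing the data). With types by markers alone, 1 member was lower in endothelial-like than fibroblast-like barcodes. Members lower in dendritic-like than macrophage-like barcodes came to 0 without the replicate block, 0 at a resolution of 2 and 0 by markers alone. The block rests on the shared mice of a library, and leaving it out changed no other count by over 1.5 times. Reversals were all among class II genes against fibroblast-like barcodes. H2-Aa, H2-Eb1 and Cd74 were at 0.16, 0.045 and 0.15 on the log2 scale with no filter, 0.57, 0.52 and 0.61 with Pth of at least 2%, and 1.47, 1.15 and 1.52 with other types under 0.3% Pth, and H2-Ab1 was at -0.33 by markers alone. With Pth, Chga and tdTomato out of the totals the parathyroid class I and machinery sums were 720.0 and 146.2 CPM. By markers alone class I was at 7380 CPM in endothelial-like barcodes, class II at 289.1 in endothelial-like, 58230 in macrophage-like and 42.73 in T cell-like, and machinery at 1523 in dendritic-like barcodes. Shares of parathyroid barcodes with a UMI, as means thinned to 10000 UMIs and unthinned, were 52.05% and 87.58% for B2m, 82.28% and 97.1% for H2-K1, 31.46% and 71.2% for H2-Q2, 10.65% and 28.27% for H2-Ab1 and 7.694% and 25.55% for Cd74. Thinned to 5000 UMIs as in the report, the Cd74 share was 3.453% without barcodes of at least 10 immune UMIs, against 3.647% with them. The causes of these changes were not tested, except that deeper barcodes hold more UMIs by construction. Leaving out a library leaves the fit no residual degrees of freedom, so it gave values only. Depth limits what can be said of members under 1 CPM and of types with few barcodes.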

Other observations

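What the Gfp entry of the gene list marks is not stated. Endothelial-like barcodes with under 300 CPM of Gfp held H2-T23 at 529 CPM in replicate 1 (41 barcodes) and 548 CPM in replicate 2 (100 barcodes). Those with at least 1000 CPM of Gfp held it at 351 CPM (41 barcodes) and 326 CPM (127 barcodes), so both libraries had the higher level at low Gfp. In fibroblast-like barcodes the order differed between libraries, at 118 and 91.8 CPM at low and 139 and 71.2 CPM at high Gfp. H2-T23 and these limits were chosen after the values had been seen, and cells of a library are not replicates, so no test was made.

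H2-Q2, high in parathyroid barcodes, stood near 0 in the 5 other types compared at either level of Gfp, with 1 and 6 UMIs in 229 and 441 barcodes under 300 CPM of Gfp and 1 and 4 UMIs in 177 and 387 barcodes of at least 1000 CPM. H2-Ke6 stood at 18.5 and 20.3 CPM at low and 23.8 and 20.4 CPM at high Gfp in the same barcodes. Barcodes with 1 to 5% Pth, which entered no comparison, included 3 of 14 and 3 of 22 with at least 100 Cd74 UMIs.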
